A study of Pantherophis guttatus with 6 samples.

Results

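The fibrillar matrix of the melanosome and its processing were followed through 7 genes, *PMEL*, *GPNMB*, *MLANA*, *GPR143*, *BACE2*, *CD63* and *APOE*, in embryonic dorsal skin of the corn snake (*Pantherophis guttatus*). They were taken by exact gene name from a table of 25731 genes, of which 17025 had enough counts to be tested, and all 7 were among those tested. At embryonic day 40, skin RNA of 3 homozygous hypomelanistic embryos was sequenced beside that of 3 wild-type embryos. The hypomelanistic morph has reduced black coloration, and the comparison asks which transcripts of the skin differ between the genotypes. According to the study's methods, the embryos came from a single clutch of heterozygous parents, so each library is a separate animal and parental background was shared. The labels name no treatment, sex or batch.

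In the mammalian pigment cell, melanin is laid down on a scaffold of amyloid fibrils inside the early melanosome. PMEL is the protein that forms these fibrils. It is cut by proprotein convertases, by a sheddase, by beta-secretase 2 (BACE2) and by gamma-secretase, and the released lumenal fragments assemble on small vesicles inside the organelle. CD63, a tetraspanin, sorts PMEL onto these vesicles, and apolipoprotein E (APOE) on the same vesicles helps fibrils to form. MLANA binds PMEL and is needed for its maturation, GPNMB is a paralog of PMEL, and GPR143 is a receptor of the melanosome membrane that limits melanosome size. These roles were established in human and mouse cells and were not measured in the snake. In snake skin the melanosomes lie in melanophores, the dark pigment cells.

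*BACE2* was the only member of the 7 whose values did not overlap between the genotypes, which held in either direction for 12.2% of all tested genes (2071 of 17025), so the count of members is near that background. It reached 66.1 ± 0.893 CPM (counts per 1000000, with library sizes scaled by TMM) in hypomelanistic skin and 94.0 ± 0.355 CPM in wild-type skin (SD, n = 3 each), a level of 70.3% of wild-type. The transcript of its substrate, *PMEL*, was at 1163 ± 52.4 CPM in hypomelanistic skin and 1179 ± 61.4 CPM in wild-type skin, and the groups overlapped. The other 5 members overlapped as well. By the edgeR quasi-likelihood test, at a Benjamini-Hochberg adjusted p of 0.05 over the whole table, 0 of the 7 members passed (4 of 17025 genes did, 0.0235%, with 0.0176% lower and 0.00587% higher), and *BACE2* had an adjusted p of 0.0674. One member, *BACE2*, passed by DESeq2 (adjusted p = 1.74e-09), by which 84 of 19637 genes passed (0.428%, and 0.199% in the lower direction). The study, which used DESeq2 on these same libraries, had already reported *BACE2* as downregulated, so this call is not separate support. In whole skin, fewer cells that make *BACE2* and less *BACE2* RNA per cell cannot be told apart. Which cells of the skin make it was not tested.

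Total counts were between 32859247 and 38541392 in the hypomelanistic libraries and between 29958657 and 33971063 in the wild-type libraries. Genes of ribosomal RNA took 10.2% to 13.5% of counts in hypomelanistic libraries and 7.39% to 8.83% in wild-type libraries. *TYR*, which encodes tyrosinase and was used to check the genotype labels with its earlier result on these libraries known, was at 4.78, 5.13 and 5.01 CPM in hypomelanistic embryos 1, 2 and 3, against 42.6, 34.5 and 34.5 CPM in wild-type embryos 1, 2 and 3 (log2 fold change -2.90 ± 0.115 SE, edgeR adjusted p = 0.000415). The library of hypomelanistic 1 stood apart from the other 5. It lay at -32.6 on the first principal component (35.9% of the variance of the 500 most variable genes), where the others lay between -1.58 and 11.2. On 5 of 62 scaffolds with at least 50 tested genes, a library had a median deviation over 0.3 on the log2 scale, and on all 5 that library was hypomelanistic 1. *GPNMB* lies on one of these scaffolds, and no other member does. By the study's account the embryos differed in sex, and sex was what mainly separated them in its own principal component analysis. The labels do not give the sex of any embryo, and the part of sex in these values was not tested. Skin identity was checked with markers. The 8 fibroblast genes summed to 98401 to 119008 CPM in hypomelanistic libraries and 112363 to 115351 CPM in wild-type libraries. Most of each sum came from *COL1A1* and *COL1A2*, which both lie on scaffolds among the 5 where hypomelanistic 1 deviated. Neither gene was raised with its scaffold in that library. *COL1A1* was at 44528.5 CPM there and at 46567 to 52040 CPM in the others. *COL1A2* was at 38605 CPM there and at 32888 to 44327 CPM in the others. The 7 keratinocyte genes in the table summed to 3872 to 4134 CPM in hypomelanistic libraries and 3920 to 4262 CPM in wild-type libraries. *KRT5* and *KRT14*, the defining keratins of basal keratinocytes, were not matched by symbol.

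**Figure D1:**
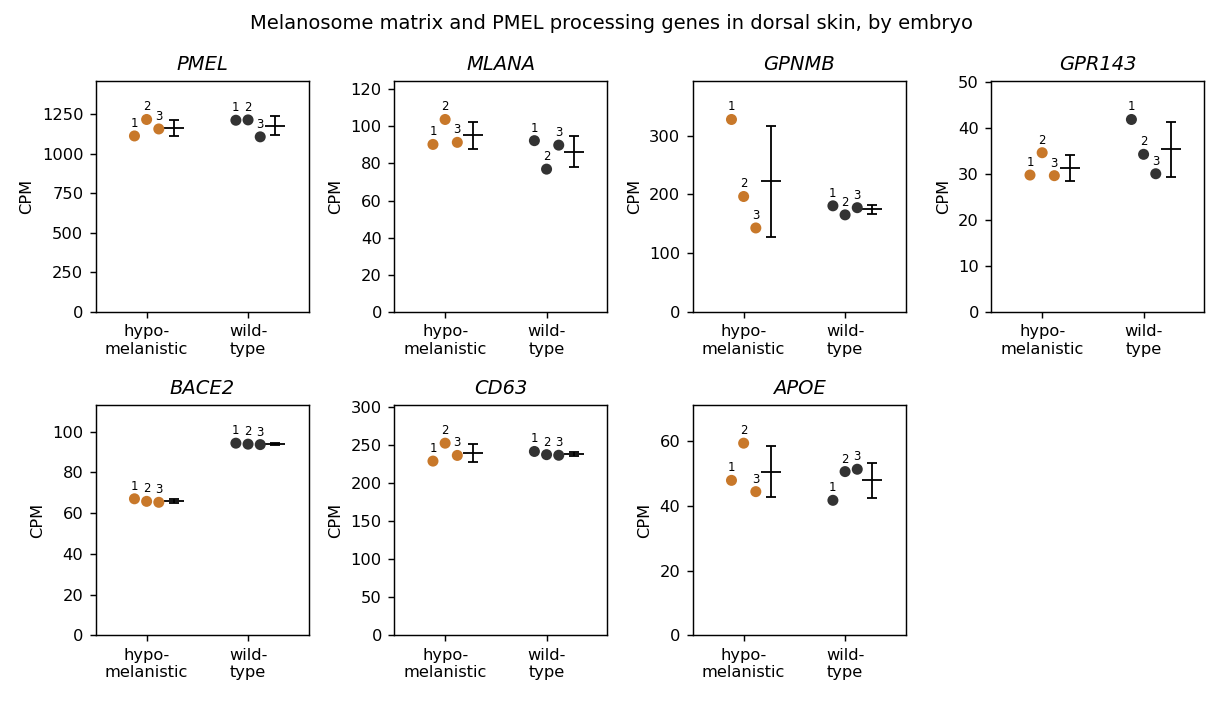
TMM-scaled CPM of the 7 genes in each embryo (numbered points, hypomelanistic on the left and wild-type on the right), with mean and SD of 3 embryos per genotype as bars. *BACE2* sits between 65.4 and 67.1 CPM in hypomelanistic and between 93.7 and 94.4 CPM in wild-type embryos, while the points of the other 6 genes overlap between genotypes.

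*PMEL*, the fibril protein, was measured at 1113, 1218 and 1158 CPM in hypomelanistic embryos 1, 2 and 3, against 1213, 1215 and 1108 CPM in wild-type embryos 1, 2 and 3. The lowest value was in a wild-type embryo and the highest in a hypomelanistic embryo. On the log2 scale the difference was -0.02 ± 0.079 (SE), and its 95% interval, from -0.20 to 0.17, corresponds to between 0.868 and 1.12 times the wild-type level (edgeR adjusted p = 0.972). With 37064 to 42764 reads per library, counting error was small beside the spread between embryos. The gene spans 84569024 to 84589289 on the plus strand of scaffold NW_026844023.1 of the CU assembly, the assembly of all coordinates given here. Without hypomelanistic 1 the log2 fold change was 0.01, and without wild-type 1 or wild-type 2 it was 0.00.

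*GPNMB*, whose protein resembles PMEL and is also made by macrophages, was at 327, 196 and 143 CPM in hypomelanistic embryos 1, 2 and 3, against 180, 165 and 177 CPM in wild-type embryos 1, 2 and 3. The hypomelanistic embryos thus held both the highest and the lowest value, and the coefficient of variation was 42.8% among them and 4.66% among wild-type embryos. Between the genotypes the log2 fold change came to 0.35 ± 0.269 (SE; 95% interval -0.28 to 0.98; edgeR adjusted p = 0.831), but it was -0.04 without hypomelanistic 1 and 0.59 without hypomelanistic 3. Hypomelanistic 1 carried 1.91 times the mean of the other 5 libraries, a deviation of 0.93 on the log2 scale. The 443 tested genes of the same scaffold (NW_026844015.1, where *GPNMB* spans 34968744 to 35001746 on the plus strand) had a median deviation of 0.74 in that library, and 102 of them deviated further upward than *GPNMB*. The 10 nearest tested genes, 5 on each side, deviated by 0.55 to 1.05 there. In hypomelanistic 3, by contrast, *GPNMB* deviated by -0.50 while the scaffold median was -0.21. The 9 macrophage genes found in the table summed to 130.5, 129.7 and 126.8 CPM in hypomelanistic embryos 1, 2 and 3, against 132.3, 112.8 and 137.5 CPM in wild-type embryos 1, 2 and 3. Most of each sum came from *CD74*, at 59.7 to 94.5 CPM. The other 8, among them the complement genes *C1QA*, *C1QB* and *C1QC*, summed to 43.0, 38.8 and 41.7 CPM in hypomelanistic embryos 1, 2 and 3, against 37.8, 53.1 and 54.0 CPM in wild-type embryos 1, 2 and 3. *MPEG1*, one of these 8, was at 0 to 0.162 CPM over all libraries and was not tested for lack of counts. The part of macrophages in the level of *GPNMB* was not tested.

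**Figure D2:**
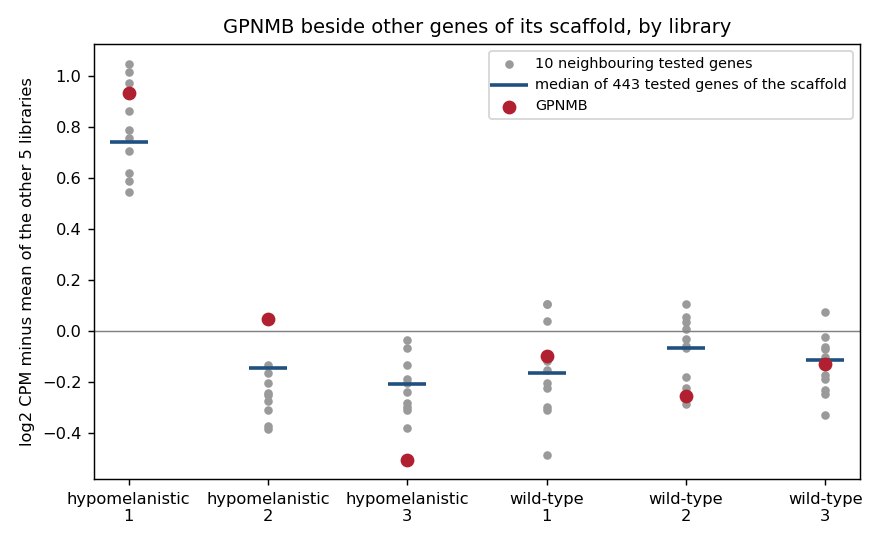
Deviation of log2 CPM in each library from the mean of the other 5, for *GPNMB* (red), its 10 neighbouring tested genes (grey) and the median of the 443 tested genes of its scaffold (blue bar). In hypomelanistic 1, *GPNMB* (0.93), its neighbours (0.55 to 1.05) and the scaffold median (0.74) all lie above 0.

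*MLANA*, the PMEL partner, was at 90.3, 103.7 and 91.4 CPM in hypomelanistic embryos 1, 2 and 3, against 92.3, 76.9 and 89.9 CPM in wild-type embryos 1, 2 and 3. A single wild-type embryo was low and a single hypomelanistic embryo was high, and the other 4 values lay between 89.9 and 92.3 CPM. Its log2 fold change came to 0.14 ± 0.092 (SE; 95% interval -0.08 to 0.36; edgeR adjusted p = 0.830), and it was 0.06 without wild-type 2 and 0.07 without hypomelanistic 2. *MLANA* spans 36054341 to 36062668 on the minus strand of scaffold NW_026844028.1.

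*GPR143*, the melanosomal receptor, was at 29.8, 34.6 and 29.6 CPM in hypomelanistic embryos 1, 2 and 3, against 41.8, 34.3 and 30.0 CPM in wild-type embryos 1, 2 and 3. Wild-type 1 was the high library, and the other 5 values lay between 29.6 and 34.6 CPM. Its log2 fold change came to -0.18 ± 0.132 (SE; 95% interval -0.49 to 0.13; edgeR adjusted p = 0.830), and it was -0.04 without wild-type 1 and -0.28 without wild-type 3. *GPR143* spans 44476064 to 44503807 on the minus strand of scaffold NW_026844017.1.

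*CD63* was at 229, 252 and 236 CPM in hypomelanistic embryos 1, 2 and 3, against 241, 237 and 236 CPM in wild-type embryos 1, 2 and 3. Its group means, 239 ± 12.0 CPM in hypomelanistic and 238 ± 2.67 CPM in wild-type embryos (SD, n = 3 each), were the closest pair among the 7 genes. On the log2 scale the difference was 0.00 ± 0.063 (SE), and the 95% interval, from -0.14 to 0.15, corresponds to between 0.905 and 1.11 times the wild-type level (edgeR adjusted p = 0.994). Without hypomelanistic 2 the difference was -0.04. *CD63* spans 85835180 to 85851265 on the minus strand of NW_026844023.1, 1246 kb from *PMEL*. CD63 is made by many cell types, so its level in whole skin is not a measure of melanophores alone.

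*APOE*, a lipid carrier that macrophages and other cells also make, was at 48.0, 59.5 and 44.5 CPM in hypomelanistic embryos 1, 2 and 3, against 41.8, 50.7 and 51.4 CPM in wild-type embryos 1, 2 and 3. Hypomelanistic 2 was the highest library and wild-type 1 the lowest. Its log2 fold change came to 0.08 ± 0.130 (SE; 95% interval -0.23 to 0.38; edgeR adjusted p = 0.927), and it was -0.05 without hypomelanistic 2 and -0.01 without wild-type 1. *APOE* spans 3792418 to 3798053 on the minus strand of scaffold NW_026844053.1.

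*BACE2*, the protease, was at 67.1, 65.8 and 65.4 CPM in hypomelanistic embryos 1, 2 and 3, against 94.4, 93.9 and 93.7 CPM in wild-type embryos 1, 2 and 3. Every hypomelanistic embryo was below every wild-type embryo, which held for 1088 of the 17025 tested genes (6.39%), and the values of each genotype lay close together. The underlying counts were 2302, 2092 and 2414 reads in hypomelanistic embryos 1, 2 and 3, against 3275, 2911 and 3135 reads in wild-type embryos 1, 2 and 3. The log2 fold change was -0.51 ± 0.052 (SE; 95% interval -0.63 to -0.39), which corresponds to between 0.646 and 0.765 times the wild-type level. The unadjusted p of edgeR was 1.98e-05, and 4 genes had a smaller one. Those were *TYR*, NAALAD2-like (LOC117660188), RPL35A-like (LOC117659923) and *VWA3B*, the 4 genes past the threshold, of which the last 3 are named after their values were seen. *BACE2* spans 19223572 to 19258167 on the minus strand of scaffold NW_026844054.1.

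The small spread of *BACE2* bears on this test. Its SD of log2 CPM within genotypes was 0.0143, and 0.0411% of tested genes had a smaller one. Counting error alone would give an SD of 0.0282 at these counts, so the observed spread was 0.506 times that of counting reads, and no variation between embryos could be resolved for this gene. A spread below the counting error was found for 9.81% of tested genes. A change in *BACE2* as large or larger in size was less unusual, since 6.68% of tested genes had a larger absolute log2 fold change. Among all tested genes, *BACE2* thus ranked further out by the closeness of the embryos within each genotype than by the size of its difference. Both shares are over genes of every level, and genes of like level were not compared apart.

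**Figure D3:**
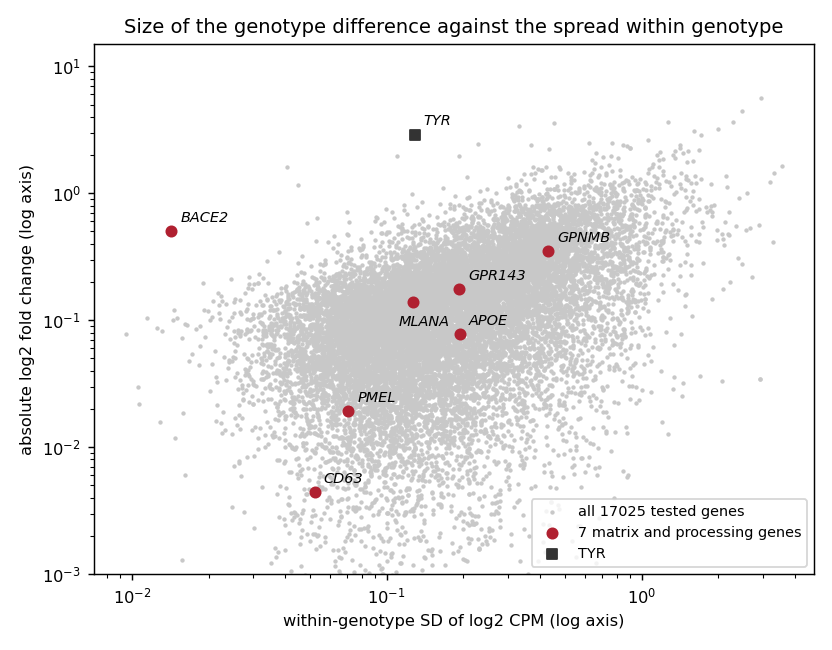
Absolute log2 fold change between hypomelanistic and wild-type embryos against the SD of log2 CPM within genotypes, both on log axes, for the 17025 tested genes (grey), the 7 genes described here (red) and *TYR* (square). *BACE2* lies at the left edge, with an SD of 0.0143 and a change of 0.51, and *GPNMB* lies on the right, with an SD of 0.430.

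Among the 7 members, 4 log2 fold changes were positive and 3 negative, with a median of 0.00. Over all tested genes the median was 0.00 as well, with 8691 positive and 8334 negative. At an unadjusted edgeR p under 0.05 there was 1 member, *BACE2*, and 5.63% of all genes. The 7 members together therefore showed no common direction.

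Levels can be compared between genes only per length. In TPM (counts divided by the exon length in the table and scaled to a total of 1000000 per library), the order by mean over the 6 embryos was *PMEL*, *CD63*, *MLANA*, *GPNMB*, *APOE*, *BACE2* and *GPR143*. *PMEL* averaged 832 ± 45.5 TPM in hypomelanistic and 886 ± 66.2 TPM in wild-type embryos, and ranked 159 among all genes of the table by its mean TPM. *CD63* ranged from 320 to 372 TPM, *MLANA* from 268 to 330 TPM and *GPNMB* from 128 to 329 TPM over the 6 libraries, so these neighbours in the order overlapped. *APOE* followed at 65.6 to 93.0 TPM, and *BACE2* averaged 38.7 ± 2.62 TPM in hypomelanistic and 57.7 ± 2.12 TPM in wild-type embryos. *GPR143* was lowest, at 8.59 to 13.1 TPM. The substrate of the pathway was thus the most abundant member and its protease among the least abundant.

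Since BACE2 acts on PMEL, the counts of *BACE2* were set against those of *PMEL* in the same library, a ratio that does not depend on library size. It was 6.02%, 5.41% and 5.64% in hypomelanistic embryos 1, 2 and 3, against 7.78%, 7.73% and 8.46% in wild-type embryos 1, 2 and 3. The groups did not overlap, and the mean log2 ratio differed by -0.49 (two-sided exact permutation test, p = 0.1, the smallest that 3 against 3 libraries allow). These shares are of read counts, not per length.

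Other denominators gave the same order for most genes, which is not separate support. Where the denominator differed little between genotypes, as *PMEL*, *CD63* and *SOX10* did, the ratio restates the difference in *BACE2*. Relative to *CD63*, *BACE2* was at 27.7% ± 1.62 in hypomelanistic and 39.5% ± 0.295 in wild-type embryos (SD, n = 3 each). Relative to *SOX10*, a transcription factor of the melanophore lineage and of Schwann cells, it was at 167% ± 5.26 in hypomelanistic and 233% ± 1.74 in wild-type embryos. The groups also did not overlap relative to *MLANA*, *MITF*, *BACE1* and *GPR143*, though for *GPR143* the nearest embryos were close, at 225% in hypomelanistic 1 and 226% in wild-type 1. They overlapped relative to *TYRP1*, an enzyme of melanin synthesis (30.8% ± 7.37 in hypomelanistic and 38.5% ± 3.29 in wild-type embryos), and relative to *DCT*, where hypomelanistic 1 was the high library of its group in both. The ratio of *CD63* to *PMEL* varied little, at 20.5% ± 0.157 in hypomelanistic and 20.2% ± 0.960 in wild-type embryos. *TYR* stood at 7.53% ± 0.354 of the *BACE2* counts in hypomelanistic and 39.6% ± 4.80 in wild-type embryos, so the difference in *TYR* was larger than that in *BACE2*.

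**Figure D4:**
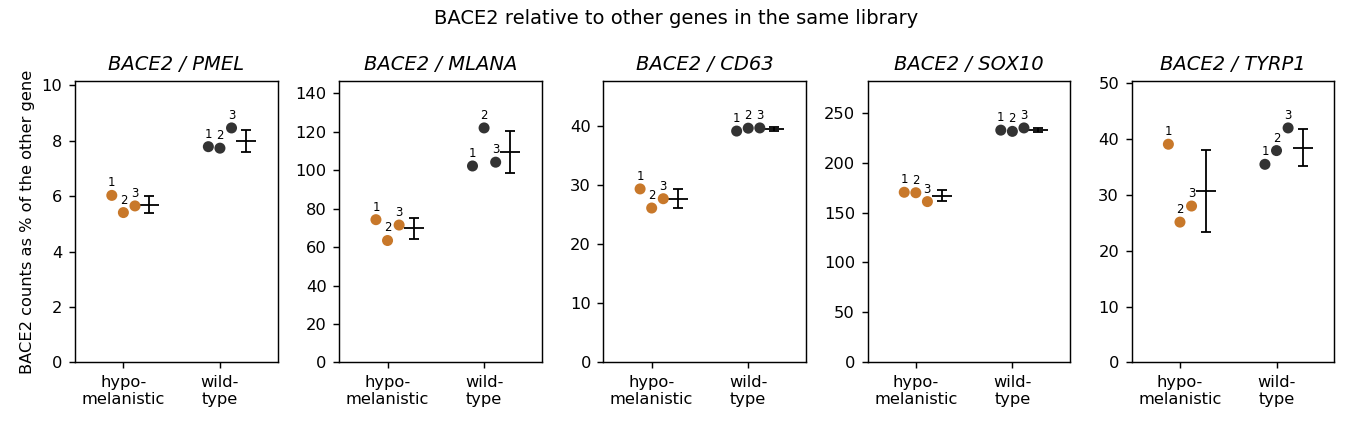
Counts of *BACE2* as a percentage of the counts of another gene in the same library, by embryo (numbered points, hypomelanistic on the left and wild-type on the right), with mean and SD of 3 embryos per genotype. The groups are apart relative to *PMEL*, *MLANA*, *CD63* and *SOX10* and overlap relative to *TYRP1*.

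Genes of the protease classes that cut PMEL in mammalian cells were read beside *BACE2*. They include the subunits of gamma-secretase and *BACE1*, which is listed as the paralog of *BACE2*. Of 12 genes, which cover proprotein convertases, sheddases, *BACE1* and gamma-secretase, 10 had a positive and 2 a negative log2 fold change, with a median of 0.07 against 0.00 over all genes, and none passed by edgeR. *ADAM10*, a sheddase, was at 148, 142 and 146 CPM in hypomelanistic embryos 1, 2 and 3, against 122, 117 and 117 CPM in wild-type embryos 1, 2 and 3. Its groups did not overlap, and its log2 fold change was 0.29 ± 0.056 (SE; edgeR adjusted p = 0.463), while DESeq2 gave an adjusted p of 0.0113. *FURIN* and *NCSTN* also lay higher in CPM in every hypomelanistic embryo, so 3 of the 12 did, against 5.77% of all genes. The same held for 3 of 12 tested tetraspanins, so it was not particular to these genes. In TPM, the groups of *FURIN* and *NCSTN* overlapped, and those of *ADAM10* did not. *BACE1*, the paralog of *BACE2*, had a log2 fold change of 0.16 ± 0.117 (SE; edgeR adjusted p = 0.830), and its groups overlapped.

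Of 12 melanophore genes, 11 were tested, and 3 had a positive and 8 a negative log2 fold change, with a median of -0.09. *TYR* passed, and no other did. *EDNRB*, the endothelin receptor of the pigment lineage, was next by p, at -0.21 ± 0.130 (SE; edgeR adjusted p = 0.828). *SOX10* (-0.03 ± 0.060) and *MITF* (-0.05 ± 0.133), transcription factors of the lineage, overlapped between genotypes. *MC1R* was not tested for lack of counts.

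**Figure D5:**
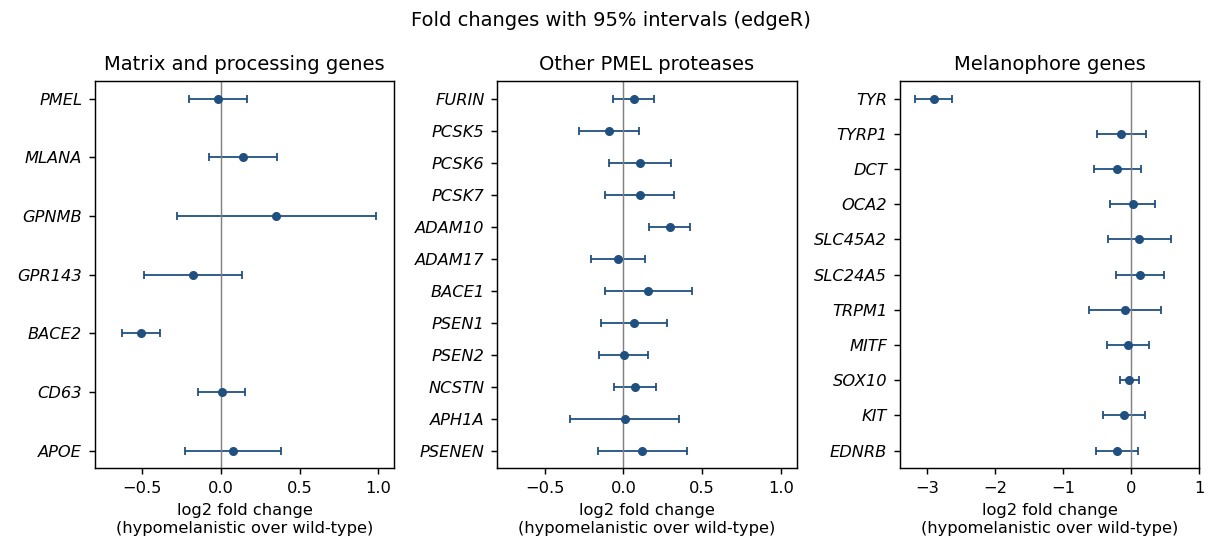
Log2 fold changes of hypomelanistic over wild-type embryos with 95% intervals from edgeR. Shown are the 7 matrix and processing genes (left), 12 protease and gamma-secretase genes (middle) and 11 melanophore genes (right, on a wider axis). The intervals of *BACE2*, *ADAM10* and *TYR* do not include 0, and those of the other genes drawn do.

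For the roles of CD63, APOE and the organelle they share, 3 further lists were read. Of 12 tested tetraspanins, 9 had a positive and 3 a negative log2 fold change, none passed by edgeR or DESeq2, and the median was 0.15. For 3 of them every hypomelanistic embryo lay above every wild-type embryo in CPM (5.77% of all genes), and for 0 below (6.39% of all genes). In TPM the groups of these 3 overlapped. *TSPAN15* (0.35 ± 0.162) and *TSPAN4* (0.25 ± 0.114) had the smallest p, each with an edgeR adjusted p of 0.828. Of 11 tested genes of lipoprotein handling, 4 were positive and 7 negative, none passed, and the median was -0.06. For 1 of them, *ABCG1*, every hypomelanistic embryo lay above every wild-type embryo (5.77% of all genes), and for 0 below. *ABCG1*, a lipid exporter, had 0.40 ± 0.160 and *LRP1*, a receptor of APOE, -0.12 ± 0.092 (edgeR adjusted p = 0.828 and 0.834). Of 14 tested lysosome genes, 5 were positive and 9 negative, none passed, and the median was -0.07. For 1 of these, *LAMP1*, every hypomelanistic embryo lay below every wild-type embryo (6.39% of all genes), and for 0 above. *MCOLN1*, a lysosomal ion channel, had -0.18 ± 0.107 and *CTSB*, a lysosomal protease, -0.10 ± 0.071 (edgeR adjusted p = 0.828 and 0.830).

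The genes with the profile most like *PMEL* over the 6 libraries, by Euclidean distance of centred log2 CPM, were *BRMS1L* (distance 0.0461), *BCAR3* (0.0472) and *PTRH2* (0.0488). Their log2 fold changes were -0.03 ± 0.072, 0.00 ± 0.121 and -0.03 ± 0.112, a likeness to *PMEL* that the choice by distance fixed. *CD63* ranked 78 among all tested genes by this distance (0.101) and *SOX10* ranked 536. No other member or melanophore gene came nearer than rank 6691. *PMEL* itself varied little, with an SD of log2 CPM within genotypes of 0.0708. Any gene of small spread lies near such a profile by this distance, whatever its pattern. *SOX10* had an SD of 0.0260, so its rank does not show a pattern shared with *PMEL*.

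For *BACE2*, the nearest profiles were those of TMEM126A-like (LOC117657883, distance 0.142), *CWF19L2* (0.151) and *GATD3* (0.151). TMEM126A-like had a log2 fold change of -0.48 ± 0.090 (edgeR adjusted p = 0.463, DESeq2 adjusted p = 0.0214), *CWF19L2* of -0.42 ± 0.068 (0.332 by edgeR, 0.00329 by DESeq2) and *GATD3* of -0.41 ± 0.063 (0.267 by edgeR, 0.00107 by DESeq2). The choice by distance to *BACE2* fixed this likeness, so these p-values do not test it. TMEM126A-like and *CWF19L2* lie on NW_026844016.1, the scaffold of *TYR*, and *GATD3* lies on the scaffold of *BACE2*, 1818 kb from *BACE2*. The scaffold of *TYR* holds 380 and that of *BACE2* 96 of the 17025 tested genes. Whether these positions bear on the likeness was not tested. The nearest member or melanophore gene was *EDNRB*, at rank 1521, so no other member and no gene of the melanophore list came close to *BACE2* by this distance. The distance also counts the size of a change. *TYR*, which like *BACE2* was lower in every hypomelanistic embryo, ranked 16892 by it (distance 2.92).

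The neighbourhood of *BACE2* on its scaffold held no called gene. Of the 10 nearest tested genes, 5 on each side, 6 had a negative log2 fold change, 0 were called by edgeR or DESeq2, and the median was -0.11. Their values ran from -0.64 for MX2-like (LOC117669471) to 0.53 for *PCP4*. The groups of both of these genes were also apart, which held in either direction for 12.2% of all tested genes. In hypomelanistic 1, the 96 tested genes of this scaffold had a median deviation of -0.15. No other annotated gene overlaps the span of any of the 7 members, and no gene of the table is named as a like copy of one, so counts shared with an overlapping gene or a named copy were not a concern for them.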

How the data were processed

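The members and gene lists were chosen with earlier results of these data known. Per the labels, poly(A) RNA of embryonic skin was sequenced with a stranded kit. The authors aligned reads with STAR 2.7.10b to the CU assembly and counted them per gene with featureCounts of Subread 2.0.6, and they deposited raw counts without normalization, beside exon lengths (strand setting: not given in the sources used here). Of 25735 lines, 4 were broken, and their 2 genes (*DST*, *MACF1*) were left out. Total counts per library (29958657 to 38541392) left counting error below the spread between embryos for most genes. Replicates differed beyond sampling noise.

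The main test was edgeR 4.0.16 (R 4.3.3) without covariates, with TMM, filterByExpr and Benjamini-Hochberg adjustment at 0.05. Its prior had 3.24 degrees of freedom. CPM are given as mean ± SD. Log2 CPM used a prior count of 2. Exact permutation used all 20 assignments. Alternatives were DESeq2 1.42.0 and its size factors, limma-voom (limma 3.58.1), library totals, no filter, no ribosomal RNA genes, a surrogate variable (sva 3.50.0), a replicate block and leaving out each library. Named were the 7 members, *TYR*, the 2 genes with the smallest p in each pathway list with any past the threshold, the 3 profiles nearest to *PMEL* and to *BACE2*, and like copies. Genes outside this rule were named after their values were seen.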

Additional observations from a re-analysis of the deposited data

How the results depend on the processing

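*BACE2* kept its direction under all 14 alternatives (log2 fold change -0.57 to -0.50) and passed only by DESeq2 (-0.51, adjusted p = 1.74e-09). Its other adjusted p-values ran up to 0.624, with 0.0602 given a surrogate variable, 0.0831 by limma-voom and 0.0609 to 0.475 when 1 library was left out. The log2 ratio of *BACE2* to *PMEL* stayed between -0.53 and -0.45 when 1 library was left out. *TYR* stayed between -2.96 and -2.79 and passed under all 14. *MLANA* (0.06 to 0.19) and *GPR143* (-0.28 to -0.04) kept their direction but moved by over 1.5 times when 1 library was left out, and no member except *BACE2* passed under any alternative.

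The log2 fold changes of *PMEL*, *CD63*, *APOE* and the 3 genes nearest to *PMEL*, all small, turned, and so did that of *GPNMB*, which rests on hypomelanistic 1. *CD63* was at -0.0569 with library totals, which shift the median of all genes to -0.0567. With a surrogate variable, *PMEL* was at 0.0113, *GPNMB* at -0.0302, *BRMS1L* at 0.0104, *BCAR3* at 0.0141 and *PTRH2* at 0.00475. That variable set hypomelanistic 1 (-0.912) apart from all other libraries (0.161 to 0.206). It is therefore nearly the same check as leaving out hypomelanistic 1. *BCAR3* was also at 0.000793 with the size factors of DESeq2, 0.000632 without a filter, 0.000718 by DESeq2 and 0.00287 without ribosomal RNA genes. Leaving out 1 library at a time gave ranges of -0.0602 to 0.0114 for *PMEL*, -0.0398 to 0.59 for *GPNMB*, -0.035 to 0.0354 for *CD63*, -0.052 to 0.165 for *APOE*, -0.0575 to 0.0109 for *BRMS1L*, -0.0373 to 0.0206 for *BCAR3* and -0.0707 to 0.00648 for *PTRH2*. The cause was not tested.

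The 4 genes called by edgeR (1 higher, 3 lower) became 84 by DESeq2 (45 higher, 39 lower) and 7 with a surrogate variable (3 higher). Leaving out 1 library gave 2 to 10 calls, with 0 to 6 higher and 2 to 4 lower. Without hypomelanistic 1 there were 10, and without wild-type 2 or wild-type 3 there were 2. With the replicate number as a block, 1 gene was called (0 higher, 1 lower), and *BACE2* was at -0.51 with an adjusted p of 0.624. Embryos with the same number did not deviate together (correlations -0.084, 0.113 and -0.006), so the numbers were not taken as pairs, and the block changed no call of a member. *ADAM10*, TMEM126A-like, *CWF19L2* and *GATD3* passed by DESeq2 alone, all but *ADAM10* after a choice by likeness to *BACE2*. With 3 embryos per genotype, a member other than *BACE2* could differ within its interval unseen, and for *GPNMB* that interval is the widest.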

Other observations

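Other cell types of the skin were read through marker lists, since several members are made outside melanophores. None of the genes of the 8 lists was called by edgeR or DESeq2. Of 8 fibroblast genes, 8 had a negative log2 fold change, with a median of -0.23. The median was -0.19 for 8 tested macrophage genes (2 positive, 6 negative), 0.04 for 7 keratinocyte genes (4 positive, 3 negative) and 0.00 for 5 endothelial genes (2 positive, 3 negative). Schwann cell genes, 4 tested, were all negative with a median of -0.27, and their summed level was 38.1 to 44.6 CPM in hypomelanistic libraries and 37.0 to 78.7 CPM in wild-type libraries. Genes of xanthophores, the yellow and red pigment cells, had a median of -0.34 (2 positive, 3 negative), and genes of iridophores, the reflecting cells, of 0.07 (2 positive, 2 negative). The xanthophore median is the value of *PAX7*, a gene of low counts (0.704 to 1.90 CPM). The other negative genes were *XDH* (0.437 to 1.68 CPM) and *CSF1R*, which is in the macrophage list too. The 2 positive genes were *GCH1* and *SCARB1*. *GCH1* had a log2 fold change of 0.81 ± 0.510 (SE) at 0.508 to 2.80 CPM. *SCARB1* had 0.08 ± 0.116 (SE) at 76.7 to 104.8 CPM. Skeletal muscle genes, 4 tested, had a median of -0.12 (1 positive, 3 negative) and summed to 605, 2402 and 1635 CPM in hypomelanistic embryos 1, 2 and 3, against 1743, 2691 and 749 CPM in wild-type embryos 1, 2 and 3. Their part in the levels of the members was not tested.

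*APOC1*, an apolipoprotein gene 13.9 kb from *APOE*, was at 31.8, 41.0 and 47.2 CPM in hypomelanistic embryos 1, 2 and 3, against 44.4, 38.0 and 57.7 CPM in wild-type embryos 1, 2 and 3. The groups overlapped. The gene was chosen after its values were seen, and its log2 fold change of -0.22 had an edgeR adjusted p of 0.845.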
